A study of Mus musculus with 8 samples.

Results

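The transforming growth factor beta (TGF-beta) genes described here are 3 ligands (Tgfb1, Tgfb2, Tgfb3), 3 receptors (Tgfbr1, Tgfbr2, Tgfbr3), 2 latent binding proteins (Ltbp3, Ltbp4) and 2 signal transducers (Smad2, Smad3). They were taken by gene symbol from the table of probe signals. The 10 genes had 22 of the 45281 probes on the array, and all 10 had at least 1 probe that could be tested (19 of the 23841 tested probes). The other 3 probes, 1 each of Tgfbr1, Tgfbr2 and Ltbp3, were undetected on all 8 arrays and were not tested. The cells came from adult mouse kidneys by magnetic sorting (MACS) for CD31, a surface protein of endothelium, and every mouse was of C57B6/CD1 strain. The 8 arrays were 2 of females and 2 of males homozygous for the Crim1 allele KST264 (Crim1KST264/KST264, called mutants here), and 2 of wildtype females and 2 of wildtype males. KST264 is a gene-trap allele, and animals of a mixed strain may differ at other loci. The labels number the mutants and wildtypes alike, females 1 and 3 and males 2 and 4, describe 4 pairs of mice, but leave unsaid whether every array stands for its own mouse; the p-values below therefore reflect scatter among these 8 samples, part of which may be technical.

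TGF-beta is secreted in a latent form, folded into its own propeptide and often bound to a latent TGF-beta binding protein that anchors it in the matrix. Once released, the ligand binds the type II receptor TGFBR2, which recruits and activates the type I receptor TGFBR1, and this kinase phosphorylates SMAD2 and SMAD3, which enter the nucleus with SMAD4. Endothelial cells also carry the type I receptor ACVRL1 and the co-receptor endoglin, through which the same ligand can reach the SMADs of the bone morphogenetic protein (BMP) branch; in kidney, TGF-beta is best known as a driver of fibrosis.

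Values are background-corrected, quantile-normalized log2 intensities, in which a step of 1 is a doubling, and the level of a probe cannot be set against that of another probe. Crim1 checked the labels: its brightest probe averaged a log2 difference of -2.33 (SE 0.17) between mutants and wildtypes, adjusted p = 0.0365 in limma, and no mutant array overlapped a wildtype one (4.67 to 5.81 in mutants, 6.96 to 7.98 in wildtypes). The Crim1 probe was detected on 2 of 4 mutant arrays and on 4 of 4 wildtype arrays. Its adjusted p was 0.157 with the replicate block and 0.0225 to 0.217 when 1 array was left out, and the authors' processed values gave -0.72 (adjusted p = 0.147). Median raw signals lay between 83.2 and 98.5, and 45.1% to 48.7% of probes were detected. The first principal component (35.1% of the variance) separated the sexes, and the second (18.4%) ran between mutant male 2 at 53.7 and wildtype male 4 at -39.8, so results on males are given with and without mutant male 2, and without wildtype male 4 where that moves them. Of 14 endothelial markers, 13 could be tested (Kdr could not), and all 13 were detected on every array. All 7 markers of the proximal tubule, an epithelium, were detected on every array too.

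No TGF-beta gene differed between mutants and wildtypes past the threshold (adjusted p under 0.05 over all 23841 probes, limma). Over all probes 0.0378% passed, 9 in all (0 with the sample numbers as a block), and 0 of the 19 TGF-beta probes did. At an unadjusted p under 0.05 there were 4 of the 19, against 8.77% of all probes. By their brightest probes, 8 of the 10 genes lay below 0 (lower in mutants) and 2 above, with a median log2 difference of -0.22, against 0.02 for the brightest probes of all 12476 named genes, of which 54.2% lay above 0. Over all 19 tested probes 12 lay below 0 and 7 above, with a median of -0.07. The plot of every array gives the levels behind these differences.

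**Figure D1:**
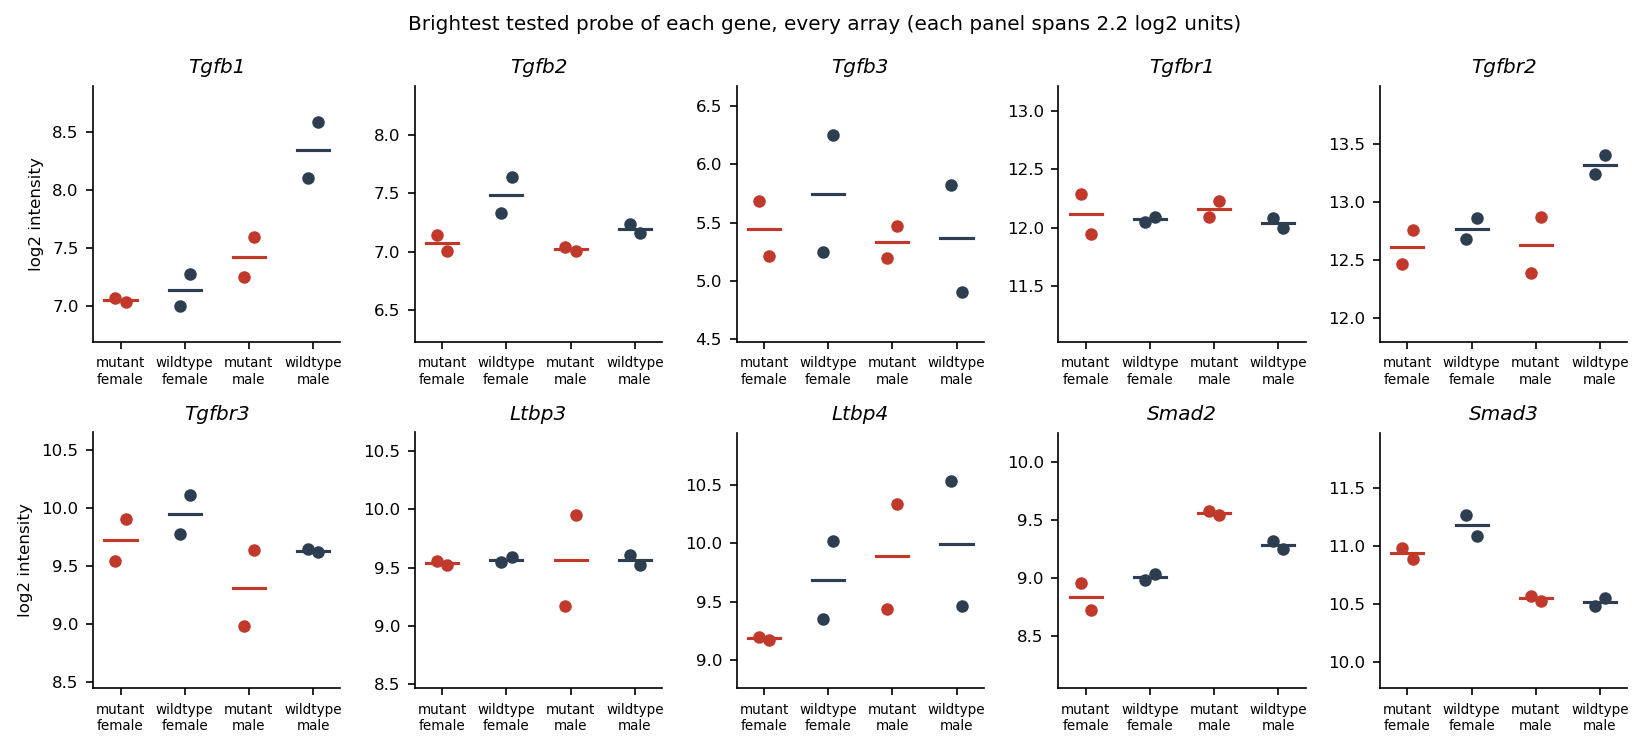
Log2 intensity of the brightest tested probe of each of the 10 genes (y axis; each panel spans 2.2 log2 units) by group (x axis); points are single arrays, red for mutants and dark blue for wildtypes, and bars are means of 2 arrays. Tgfb1 and Tgfbr2 are highest in the wildtype males, and Smad3 is lower in males than in females in both genotypes.

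Tgfb1, the ligand best known from endothelium and immune cells, had the largest genotype difference among the brightest probes. It stood at 7.07 and 7.04 in mutant females and 7.25 and 7.59 in mutant males, against 7.00 and 7.27 in wildtype females and 8.10 and 8.59 in wildtype males. The wildtype males stood above all other arrays, and the remaining 6 arrays spanned 7.00 to 7.59. Averaged over the sexes the difference was -0.50 (SE 0.15, 95% interval -0.87 to -0.14, adjusted p = 0.427). In males it was -0.92 (SE 0.22, adjusted p = 0.236), a 1.90-fold lower level in mutants, and -0.75 (adjusted p = 0.419) without mutant male 2 or -0.68 (adjusted p = 0.712) without wildtype male 4. In females it was -0.08 (SE 0.22, adjusted p = 1.00). The difference between the sexes in this effect was -0.84 (SE 0.31, adjusted p = 0.689, limma's interaction contrast), so it was not shown to differ.

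Tgfb2, whose signalling leans on the co-receptor TGFBR3, was close to 7 on every mutant array. Its levels were 7.14 and 7.00 in mutant females and 7.04 and 7.01 in mutant males, against 7.33 and 7.64 in wildtype females and 7.24 and 7.16 in wildtype males. No mutant array reached the lowest wildtype array, which held for no other gene by its brightest probe. Among all probes, mutants and wildtypes did not overlap in 2.88%. The difference was small (-0.30, SE 0.11, adjusted p = 0.526). Tgfb3, the third ligand, was near the detection limit, with 3 of 4 mutant arrays and 3 of 4 wildtype arrays detected. Its levels were 5.68 and 5.21 in mutant females and 5.20 and 5.47 in mutant males, against 5.24 and 6.25 in wildtype females and 5.83 and 4.90 in wildtype males, which overlap. The result was a difference of -0.16 (95% interval -0.85 to 0.53, adjusted p = 0.952), which changed sign without wildtype female 3 (0.09) or wildtype male 2 (0.07).

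Tgfbr2, the type II receptor that binds the ligand first, had 3 tested probes that disagreed. The brightest probe stood at 12.47 and 12.76 in mutant females and 12.39 and 12.87 in mutant males, against 12.68 and 12.86 in wildtype females and 13.24 and 13.40 in wildtype males. As for Tgfb1, the wildtype males stood above all other arrays. The difference was -0.42 (SE 0.15, adjusted p = 0.480) over both sexes and -0.69 (SE 0.21, adjusted p = 0.310) in males, or -0.45 (adjusted p = 0.561) without mutant male 2. A dimmer probe, ILMN_1242086, differed by -0.02 (adjusted p = 0.993), with -0.47 in males and 0.42 in females. The third, ILMN_1215171, was designed on another transcript record and ran the other way (0.46, SE 0.13, adjusted p = 0.393). It was not well above background on any wildtype array and was detected on 2 of 4 mutant arrays. Against the lowest detected signal of the wildtype arrays, the mutant mean was at least 1.07-fold higher. That mean takes the undetected mutant arrays at their measured values, and the difference did not pass. With the mean of the 3 probes the Tgfbr2 difference was 0.01, so its direction depends on the probe.

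Tgfbr1, the type I kinase that activates the SMADs, had the narrowest range of the receptors' brightest probes. It spanned 11.95 to 12.29 in mutants and 12.00 to 12.09 in wildtypes. The difference was 0.08 with a 95% interval of -0.20 to 0.36 (adjusted p = 0.936), and the dimmer probes gave 0.04 and 0.16. Tgfbr3, or betaglycan, which presents ligand to TGFBR2, had 9.54 and 9.91 in mutant females and 8.98 and 9.64 in mutant males, against 9.78 and 10.12 in wildtype females and 9.65 and 9.62 in wildtype males. The lowest value was that of mutant male 2. The difference was -0.27 (SE 0.18, adjusted p = 0.769), -0.11 without mutant male 2, and the dimmer probe gave -0.07.

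Ltbp3, which binds latent TGF-beta, gave the smallest difference of the 10 genes (-0.02, 95% interval -0.43 to 0.40, adjusted p = 0.995). The mutant females stood at 9.55 and 9.52 and the mutant males at 9.17 and 9.95, against 9.54 and 9.59 in wildtype females and 9.61 and 9.52 in wildtype males. The mutant males were the lowest and the highest of all 8 arrays and cancelled each other, with a difference in males of 0.39 without mutant male 2. Ltbp4, which ties latent TGF-beta to elastic fibres, had the largest SE of the brightest probes (0.31). By its brightest probe it had 9.20 and 9.17 in mutant females and 9.44 and 10.34 in mutant males, against 9.35 and 10.02 in wildtype females and 10.54 and 9.46 in wildtype males. On all 3 probes wildtype male 2 was the highest array. The 3 probes gave differences of -0.31, -0.27 and -0.40 (adjusted p from 0.770 to 0.939), and the interval of the brightest ran from -1.03 to 0.42.

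Smad2 and Smad3, the SMADs that carry the TGF-beta signal, differed little between genotypes. Smad2 differed by 0.05 (95% interval -0.20 to 0.30, adjusted p = 0.959) and Smad3 by -0.11 (95% interval -0.35 to 0.14, adjusted p = 0.877). Within the sexes Smad2 pointed in opposite directions without passing, 0.28 in males (0.26 without mutant male 2) and -0.17 in females, with an interaction of 0.45 (SE 0.21, adjusted p = 0.743).

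**Figure D2:**
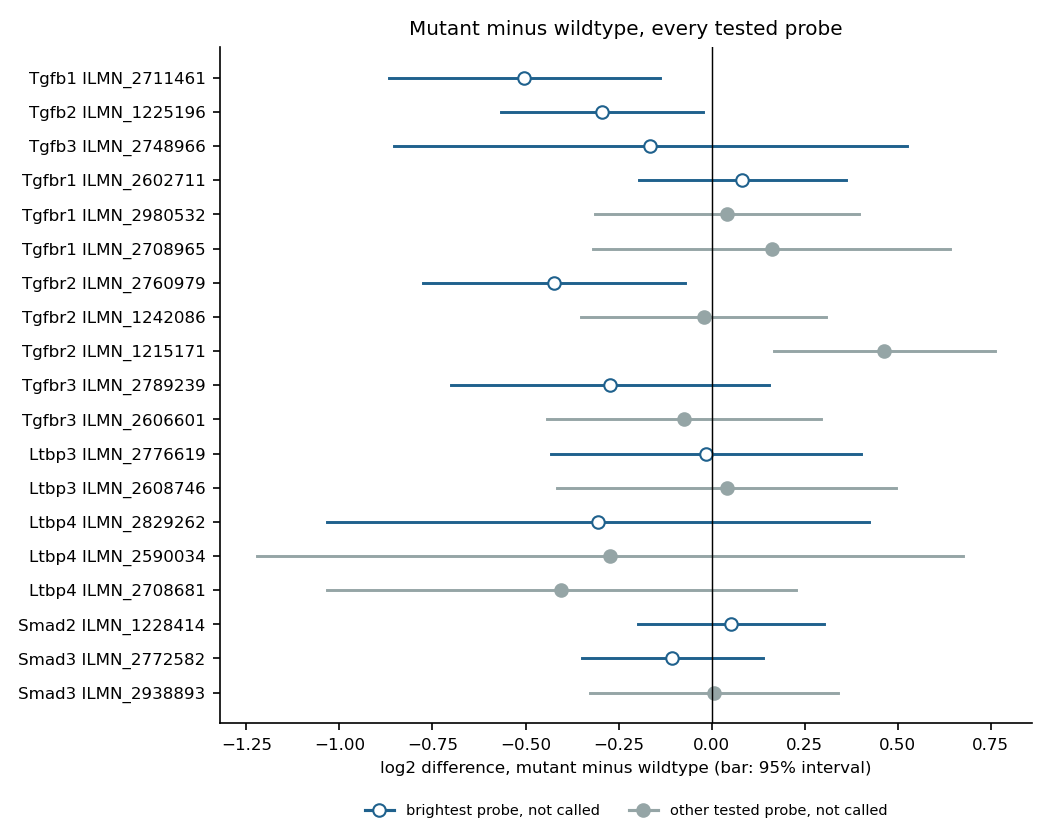
Log2 difference of mutants minus wildtypes (x axis) for each of the 19 tested probes (y axis), with bars for the 95% interval; blue for the brightest probe of a gene, grey for its other probes. No probe was called; Tgfb1 lies lowest at -0.50 and the dim Tgfbr2 probe ILMN_1215171 highest at 0.46.

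Split by sex, no TGF-beta probe passed either. Over all probes 0.0% passed in females (0 of 23841), 0.00419% in males (1 probe) and 0.0% for the interaction. At an unadjusted p under 0.05 there were 1 of the 19 TGF-beta probes in females, 3 in males and 2 for the interaction, against 4.25%, 11.2% and 6.96% of all probes. Mutants and wildtypes did not overlap for 8 of 19 probes in females and 7 of 19 in males, against 32.8% and 39.4% of all probes, which with 2 arrays a side is close to the background.

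Levels of Tgfb1 and of the brightest Tgfbr2 probe ran beside those of the endothelial markers. The dimmer Tgfbr2 probes correlated with the brightest at 0.47 and -0.40 over the 8 arrays (Pearson's r). All 13 tested endothelial markers lay below 0 between mutants and wildtypes (median -0.61 over the list), and 0 passed. At an unadjusted p under 0.05 (limma) there were 8 of the 13, against 8.77% of all probes. Within the sexes there were 0 in females and 11 in males, against 4.25% and 11.2% of all probes. The summed linear signal of the 13 markers was 53645 to 98279 in mutants and 67247 to 158307 in wildtypes. In males alone it was 53645 and 98279 in mutants, against 125267 and 158307 in wildtypes, and females of both genotypes spanned 57436 to 75700. None of these markers was undetected on any array; Pecam1, which encodes CD31, differed by -0.73 (adjusted p = 0.422). The 7 proximal tubule markers summed to 75201 to 88470 in mutants and 71226 to 81934 in wildtypes, with 6 of 7 above 0 (median 0.31). The 5 tested platelet markers, from cells that store TGF-beta1, had a median of 0.04, and summed to 547 to 715 in mutants and 485 to 918 in wildtypes. The part of these shifts in the Tgfb1 and Tgfbr2 values was not tested, and in a sorted bulk sample fewer cells of a type and less RNA per cell cannot be told apart.

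**Figure D3:**
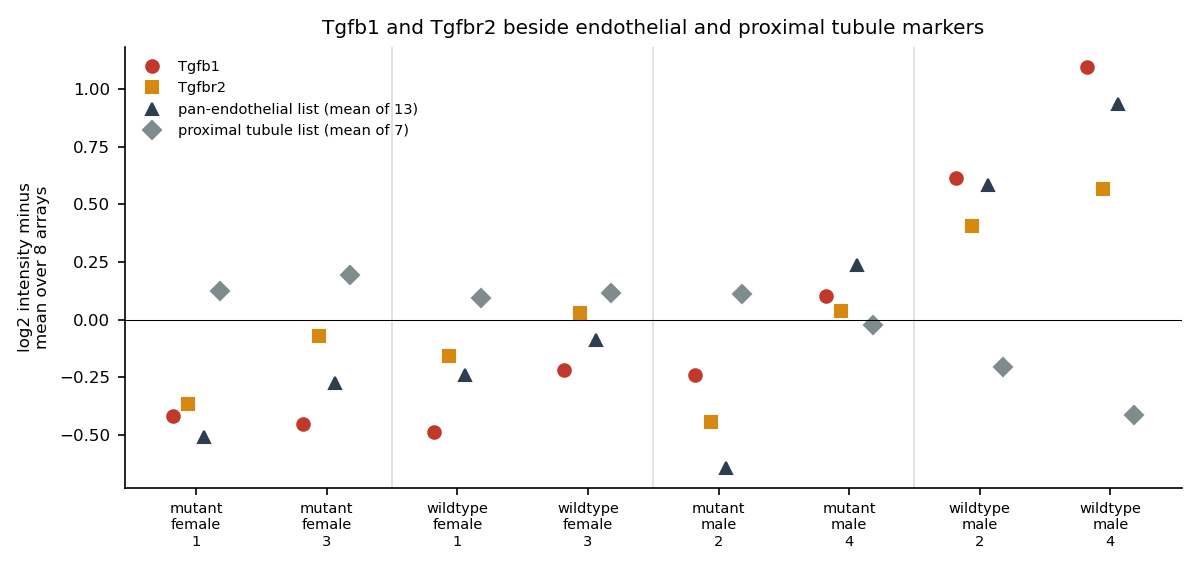
Log2 intensity minus its mean over the 8 arrays (y axis) on each array (x axis). Shown are Tgfb1, the brightest Tgfbr2 probe, the mean of 13 endothelial markers and the mean of 7 proximal tubule markers. Tgfb1, Tgfbr2 and the endothelial mean are highest on both wildtype male arrays, where the proximal tubule mean is lowest.

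The 250 bases before the start of Tgfb1, Tgfbr2 and Smad3 are shown because by its brightest probe each had the widest genotype or sex difference within its own role (ligands, receptors, SMADs). They come from RefSeq (GRCm38.p6): Tgfb1 at chr7:25686752-25687001 on the plus strand, Tgfbr2 at chr9:116175364-116175613 on the minus strand and Smad3 at chr9:63757995-63758244 on the minus strand. Capitals mark CAGAC, the short box that SMAD3 and SMAD4 bind, read on both strands (CAGAC or GTCTG).
Tgfb1: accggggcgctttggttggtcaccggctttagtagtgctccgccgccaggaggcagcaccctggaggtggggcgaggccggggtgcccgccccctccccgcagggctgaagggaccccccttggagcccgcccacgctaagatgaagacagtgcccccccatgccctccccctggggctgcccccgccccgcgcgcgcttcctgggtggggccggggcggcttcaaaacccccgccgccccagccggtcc
Tgfbr2: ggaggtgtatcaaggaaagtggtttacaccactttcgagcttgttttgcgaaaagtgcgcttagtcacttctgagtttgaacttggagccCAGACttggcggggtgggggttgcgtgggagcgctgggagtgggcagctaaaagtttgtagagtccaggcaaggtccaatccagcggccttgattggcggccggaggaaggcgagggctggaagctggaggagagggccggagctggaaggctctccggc
Smad3: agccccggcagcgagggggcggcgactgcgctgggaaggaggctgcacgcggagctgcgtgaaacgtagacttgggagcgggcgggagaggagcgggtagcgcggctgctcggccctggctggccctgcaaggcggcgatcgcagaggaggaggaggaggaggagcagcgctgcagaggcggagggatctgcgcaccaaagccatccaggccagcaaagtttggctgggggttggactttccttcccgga
Tgfbr2 had 1 such box, which starts 160 bases before the gene's start, and these letters were not in the Tgfb1 and Smad3 windows. The box stood in the 250 bases of 42.2% of all 32851 RefSeq windows, and in 4 of the 10 windows listed for 7 of the TGF-beta genes. A match of this kind is a description of the letters and not a binding site.

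Between the sexes, 2 of the 19 TGF-beta probes passed, Tgfb1 higher and Smad3 lower in males, against 3.06% of all probes (730 of 23841). At an unadjusted p under 0.05 there were 4 of the 19, against 20.1%. Tgfb1 averaged 7.88 ± 0.585 in males and 7.10 ± 0.122 in females (SD, n = 4 each), a log2 difference of 0.79 (SE 0.15, adjusted p = 0.0474 in limma), or 1.73-fold. The sexes overlapped by mutant male 2 alone, at 7.25 against 7.27 in wildtype female 3. The difference was 0.37 among mutants (1.29-fold) and 1.21 among wildtypes (2.31-fold), and the interaction given above did not pass. Endothelial markers lay higher in males as well, 12 of 13 above 0 with a median of 0.60. Markers of T and natural killer cells (5 of 6 above 0, median 0.95) and of macrophages (6 of 7, median 0.33) did so too. The part of these cell types in the Tgfb1 value was not tested.

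Smad3 ran the other way. Its brightest probe stood at 10.57 and 10.53 in mutant males and 10.48 and 10.55 in wildtype males, against 10.98 and 10.89 in mutant females and 11.27 and 11.09 in wildtype females. All 4 males lay below all 4 females, which was the case for 7.63% of all probes. The difference was -0.52 (SE 0.10, adjusted p = 0.0479), a 1.44-fold lower level in males. It was -0.39 among mutants and -0.66 among wildtypes. The dimmer Smad3 probe also had every male below every female, with a difference of -0.31 (SE 0.14, adjusted p = 0.283, limma). Among wildtypes that separation was narrow: female 1 stood at 9.28, but female 3 and both males lay at 8.70 to 8.74. Of the 7 proximal tubule markers, 5 lay below 0 in males; the glucose transporter Slc5a2 fell (-0.77, adjusted p = 0.0458) and the organic anion transporter Slc22a6 rose (1.23, adjusted p = 0.00986). Their summed signal was 71226 to 88470 in males and 75201 to 81934 in females, and their part in the Smad3 value was not tested.

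Smad2 came close to the threshold in the direction opposite to Smad3. It stood at 9.58 and 9.54 in mutant males and 9.32 and 9.25 in wildtype males, against 8.96 and 8.73 in mutant females and 8.99 and 9.04 in wildtype females. Every male lay above every female, as for 4.95% of all probes. The difference was 0.50 (SE 0.11, adjusted p = 0.0596), and 5 of the alternatives brought it under the threshold, with adjusted p from 0.0157 with the authors' processed values to 0.0453 without a filter.

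Both sex calls were at the edge. Treating sample numbers as a random block gave an adjusted p of 0.0577 for Tgfb1 and 0.0605 for Smad3. Neither held without any single one of the 8 arrays: Tgfb1 then gave 0.67 (without wildtype male 4) to 0.91 (without wildtype male 2), with adjusted p from 0.0518 to 0.160, and Smad3 gave -0.57 (without wildtype female 3) to -0.48 (without wildtype female 1), with adjusted p from 0.0715 to 0.167. Median scaling in place of quantile normalization ended both calls (adjusted p = 0.0631 and 0.0531). Without a genotype term the Tgfb1 call was lost (adjusted p = 0.147), and with the authors' processed values its difference was 0.39 (adjusted p = 0.0469).

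**Figure D4:**
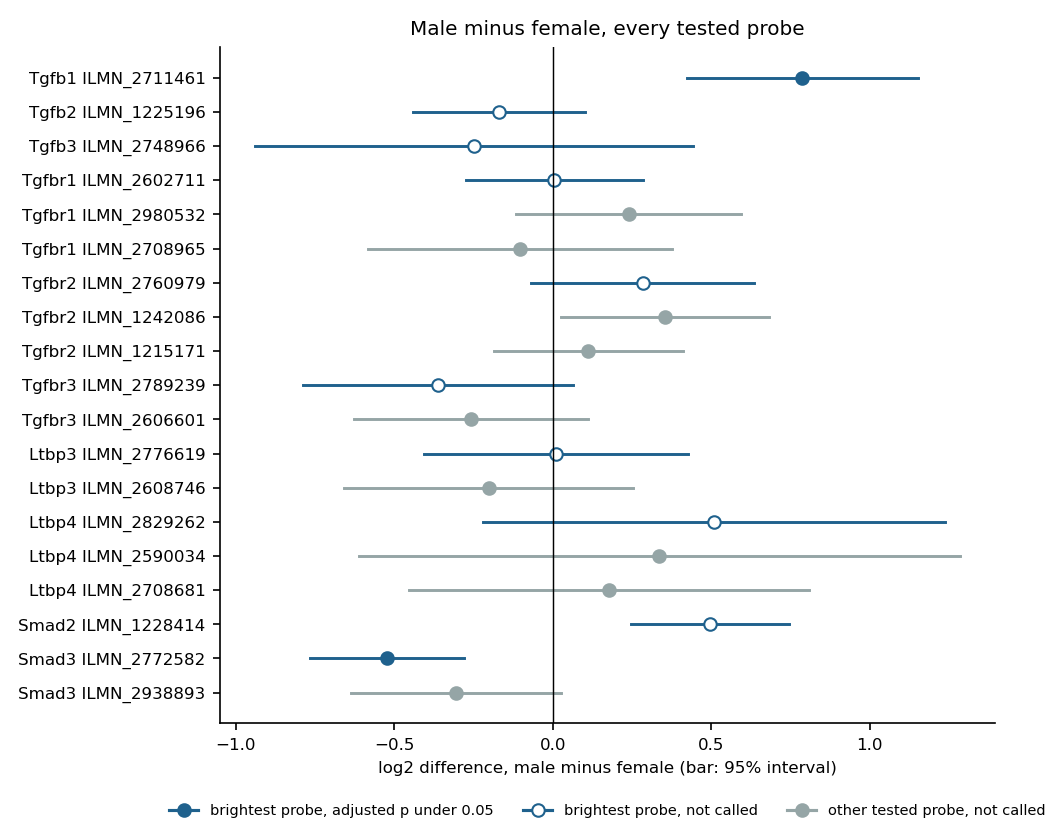
Log2 difference of males minus females (x axis) for each of the 19 tested probes (y axis), with bars for the 95% interval; blue for the brightest probe of a gene (filled where adjusted p was under 0.05), grey for its other probes. Tgfb1 (0.79) and Smad3 (-0.52) were called on opposite sides of 0, and Smad2 (0.50) was not.

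The other 7 genes did not pass between the sexes by any tested probe. Ltbp4 lay at 0.51 (SE 0.31, adjusted p = 0.404), Tgfbr2 at 0.28 (adjusted p = 0.337), Tgfb2 at -0.17, Tgfb3 at -0.25 and Tgfbr3 at -0.36 (adjusted p = 0.316). Tgfbr1 and Ltbp3 both stood at 0.01, with 95% intervals of -0.27 to 0.28 and -0.41 to 0.43. Both changed sign with median scaling, to -0.06 for Tgfbr1 and -0.06 for Ltbp3.

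Genes around the pathway were read from 6 lists. In all 6, no gene passed between genotypes or sexes over all genes tested. Genes that hold or release latent TGF-beta had 16 of 20 members tested, 10 above 0 and 6 below in mutants (median 0.19). Ltbp1, the main binding protein of latent TGF-beta1, was lowest, with 8.16 ± 0.462 in mutants and 9.21 ± 0.698 in wildtypes (SD, n = 4 each). The difference was -1.05 (SE 0.24, adjusted p = 0.353, limma), while its dimmer probe gave 0.18. Its brightest probe gave -0.78 without mutant male 2 and -1.33 without mutant male 4. Mmp2, a gelatinase that can release the ligand, was highest at 0.98 (SE 0.19, adjusted p = 0.343, limma). Every mutant array (7.06 to 7.90) lay above every wildtype one (6.46 to 6.95) for Mmp2. Among all probes, the genotypes did not overlap in 2.88%.

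The endothelial co-receptor and BMP-Smad branch was the list with every tested gene below 0 (8 of 8, median -0.37). Acvrl1, the endothelial type I receptor, stood at 6.59 to 7.47 in mutants and 6.83 to 8.19 in wildtypes, which overlap. The difference was -0.67 (SE 0.20, adjusted p = 0.427, limma), -0.47 without mutant male 2 and -0.88 without mutant male 4. This list shares the co-receptor gene Eng with the endothelial markers, all of which lay below 0 as well, and their part in it was not tested. Smad partners and feedback regulators (9 of 14 tested, 7 above 0) had a median of 0.05, with Tgif1, a corepressor, at 0.31 (adjusted p = 0.606). Smad6, an inhibitory SMAD, lay at -0.21. In the activin branch 5 of 12 genes were tested (median -0.02), with Fstl3, which binds activin, at 0.46 (SE 0.12, adjusted p = 0.383, limma) and the receptor Acvr2a at -0.25. Mutants and wildtypes did not overlap for Fstl3, as for 2.88% of all probes.

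Targets that TGF-beta is known to induce had 15 of 20 members tested, 12 above 0 and 3 below, with a median of 0.13. Timp1, an inhibitor of matrix proteases, was highest at 1.00 (SE 0.22, adjusted p = 0.352, limma), with its other probe at 1.05. Snai2, a transcription factor of mesenchymal transition, was lowest at -0.69 (SE 0.37, adjusted p = 0.691, limma). The Snai2 difference was -0.26 without mutant male 2 and -1.13 without mutant male 4. Of 6 extracellular proteins that bind TGF-beta, 5 lay above 0 (median 0.19). Dcn, a proteoglycan, gave 0.88 (SE 0.12, adjusted p = 0.204), while its 2 dimmer probes gave 0.87 and -0.86, and Emilin1, a matrix protein, gave -0.22. By its brightest probe Dcn differed by 1.63 in females (adjusted p = 0.237) and 0.12 in males (adjusted p = 0.862), with an interaction of -1.51 (adjusted p = 0.591). Dcn is also a fibroblast marker and Timp1 an injury marker here. Of 8 fibroblast markers 4 could be tested, Dcn among them, so their sum includes Dcn itself. All 4 lay above 0 and summed to 1261 to 2208 in mutants and 782 to 1254 in wildtypes. The 8 injury markers, Timp1 among them, also lay above 0 and summed to 3615 to 6060 in mutants and 2004 to 2368 in wildtypes. Their part in the Timp1, Mmp2 and Dcn values was not tested.

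**Figure D5:**
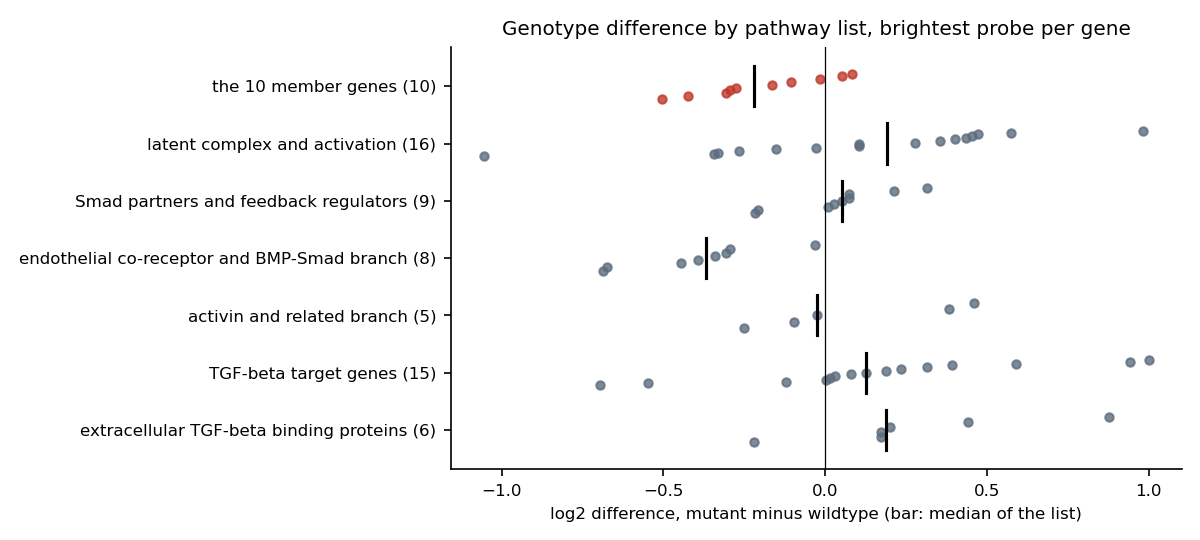
Log2 difference of mutants minus wildtypes (x axis) of the brightest tested probe of each gene (points), by gene list (y axis, with the number of genes), and the median of each list (black bar). The 10 TGF-beta genes (red) have a median of -0.22 and the BMP-Smad branch one of -0.37, and the other lists lie between -0.02 and 0.19.

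Between the sexes the lists likewise held no call. The genes with the smallest p on each side were Nrros, which anchors latent TGF-beta on myeloid cells (0.81, adjusted p = 0.0736), and Thbs1, an activator of the ligand (-0.55, adjusted p = 0.0779); Skil, a repressor of SMAD activity (0.35) and Nedd4l, a ubiquitin ligase (-0.22); Acvrl1 (0.71, adjusted p = 0.120) and Smad5 (-0.10); the targets Tgfbi (0.55, adjusted p = 0.0836) and Ccn1 (-0.64, adjusted p = 0.0956); and Lrg1, a ligand modulator of vessels (0.57, adjusted p = 0.0974), and Fmod (-0.39). In the activin branch all 5 genes lay below 0, and the type I receptor Acvr1b was nearest to the threshold (-0.53, SE 0.11, adjusted p = 0.0517, limma). Every male (7.55 to 7.79) lay below every female (8.05 to 8.28), as for 7.63% of all probes, while the other tested Acvr1b probe gave 0.09.

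Among 12466 other named genes, those whose level followed Tgfb1 most closely over the 8 arrays were Ramp3, a receptor-modifying protein of endothelium (Pearson's r = 0.994), the protease Klk8 (0.990) and Icam2, an endothelial adhesion molecule (0.988). For Tgfb3 they were Dhx8 (0.974), Nom1 (0.965) and Copb2 (0.956), and for Ltbp4 they were Olfr543 (0.954), Pdcl (0.932) and 2310022A10Rik (0.922). These are the 3 genes with the widest range over arrays. As stated above, Tgfb3 was near the detection limit and undetected on some arrays, so part of its range may be background noise. Each r is the highest found in a search over many genes on 8 arrays that share their sex and genotype groups, and describes these arrays only.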

How the data were processed

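The authors deposited a table of Illumina BeadChip signal intensity for 45281 probes on 8 arrays, with a detection p-value per probe and array per the file headers, and a table of processed values that look log2-scaled; no source used here says how the authors made these log2 values. All value columns were tied to a sample (0 were not). Intensities were corrected by normexp with the detection p (offset 16), put on the log2 scale and quantile normalized (limma 3.58.1, R 4.3.3). Probes with detection p under 0.05 on at least 2 arrays were tested with lmFit and eBayes over 4 groups of 2, with Benjamini-Hochberg adjustment over 23841 probes. Intervals are 95% intervals of this fit. The number of arrays limits the precision.

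Symbols came from GEO's platform annotation (34885 probes with 1 symbol, 18 with several, 10378 with none), of which 34807 matched the GRCm38.p6 RefSeq table by Entrez number. Where a gene had several tested probes, the one with the highest mean over the 8 arrays stood for it. All members were named, and from each pathway list the gene with the smallest p on each side of 0. Members, lists and tests were chosen with earlier results of these data known. The design text speaks of 4 pairs of mice; deviations from the group means of same-numbered arrays correlated at 0.100 in females and 0.270 in males, and the numbers were taken as pairs in an alternative fit. On simulated data for the genotype effect with 23841 probes, 4%, 66%, 98% and 96% of 50 probes were recovered at log2 changes of 0.5, 1, 2 and 3. In the same run 13 unchanged probes were called falsely. The simulated arrays had normal scatter and no sex difference, unlike the real ones.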

Additional observations from a re-analysis of the deposited data

Results flagged for a closer look

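In 3 cases 1 of the 4 arrays of a genotype lay apart from the other 3 on a dimmer probe of a gene. This was judged by its gap against the group's whole range, which can itself be small. With 19 tested probes and both genotypes, a few such cases are due by chance. Chance gives such a gap in about 1 in 20 groups of like arrays, whereas each group here mixed females and males. For Ltbp3, probe ILMN_2608746 stood at 5.21 in mutant male 2, against 6.11 to 6.18 in the other mutants. For Smad3, probe ILMN_2938893 stood at 9.28 in wildtype female 1, against 8.70 to 8.74 in the other wildtypes. For Tgfbr2, probe ILMN_1215171 stood at 4.94 in wildtype female 3, against 4.85 to 4.86 in the other wildtypes, and it was not detected on any wildtype array.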

How the results depend on the processing

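No genotype, within-sex or interaction call was made for a TGF-beta probe under any alternative run. With the sample numbers as a fixed replicate block, Tgfb1 kept its genotype difference of -0.50 (adjusted p = 0.335), and no TGF-beta call changed; for the sex effect this block could not be fitted, since the numbers differ between the sexes. The 2 sex calls became 0 with median scaling and with the random replicate block, 1 without a genotype term, and 0 when any array was left out; the cause was not tested. They became 3, with Smad2 added, with no background correction, an offset of 50, the strict filter or the authors' processed values, and stayed 2 without a filter, where Smad2 passed and Tgfb1 did not. Leaving out an array moved the median over the 10 genes between -0.37 and -0.08 (genotype), -0.28 and 0.058 (males) and -0.066 and 0.275 (interaction). Over all probes the 9 genotype calls became 0 with the authors' values or the fixed block, 1 without a filter and 3 without a sex term. Leaving out any array lost all or nearly all of them. With every array kept, the 730 sex calls ranged from 522 to 1120, and most fits with an array left out gave fewer.
Some directions turned. Ltbp3 turned to 0.0015 and 0.0047 in males (no background correction, authors' values), -0.0061 in the interaction and -0.0649 between the sexes (median scaling), and -0.096 between the sexes and 0.013 between genotypes (mean of probes). Tgfbr1 turned to -0.056 and -0.0031 between the sexes (median scaling, authors' values), and Tgfbr2 to 0.0069 between genotypes (mean of probes). Leaving out single arrays gave these ranges. Between genotypes they were -0.416 to 0.088 (Tgfb3), -0.0020 to 0.167 (Tgfbr1), -0.0053 to 0.109 (Smad2) and -0.211 to 0.181 (Ltbp3). In females they were -0.121 to 0.217 (Tgfbr1), -0.219 to 0.053 (Tgfb1) and -0.802 to 0.204 (Tgfb3). In males they were -0.493 to 0.435 (Tgfb3), -0.651 to 0.0029 (Tgfbr3), -0.394 to 0.390 (Ltbp3), -0.650 to 0.429 (Ltbp4) and -0.0038 to 0.066 (Smad3). For the interaction they were -0.428 to 0.226 (Tgfbr3), -0.10 to 0.238 (Tgfbr1), -0.233 to 0.773 (Tgfb3), -0.366 to 0.418 (Ltbp3) and -0.148 to 0.931 (Ltbp4). Between the sexes they were -0.079 to 0.090 (Tgfbr1), -0.186 to 0.206 (Ltbp3) and -0.50 to 0.0036 (Tgfb3). Where a group was left with 1 array, that array was assumed to vary like the other groups.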
